A study of Mus musculus with 8 samples.

Results

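Immediate early genes are transcribed within minutes of a stimulus, from factors that are already in the cell, and most of their transcripts are short lived. Kinases such as ERK and the cyclic AMP pathway act on the factors SRF, the ELK proteins and CREB at their promoters, and the products are transcription factors of the AP-1 (Fos and Jun), EGR and NR4A families together with proteins that shut the response off again. Neurons, glia and fibroblasts all use these genes, and their level in a dissected tissue is also sensitive to how the animal was handled and how fast the tissue was frozen. Here the group was the 10 genes Fos, Fosb, Jun, Junb, Egr1, Ier2, Arc, Nr4a1, Dusp1 and Zfp36, taken from the tables by gene symbol, with no threshold on any measured value. All 10 were among the 47628 entries that name a gene in each count table, and all 10 were among the 19366 that passed the filter on low counts.

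RNA seq was performed on the cochlea of 4 WT mice (WT_4, WT_5, WT_6 and WT_8) and 4 Opa1+/- littermates (Het_2, Het_7, Het_484 and Het_491, the numbers being those of the animals), untreated and 21 days old. The Opa1+/- mice carried 1 knock-in copy of the recurrent human delTTAG mutation of OPA1, the dynamin-like GTPase of the inner mitochondrial membrane, in every cell, and both genotypes shared a mixed C57BL/6J and 129Sv/Pas background. Each library came from 1 mouse and holds the whole dissected cochlea, so sensory cells, neurons, glia, vessels, bone and blood were read together, and fewer cells of a type cannot be told apart from less RNA per cell. The comparison asks whether the rapid response genes differed between the genotypes at an age before the hearing loss under study, and how far they differed from mouse to mouse.

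Counts on named genes ranged from 15978051 to 20828030 per library, and levels are given as CPM, read counts relative to the library total scaled by TMM factors between 0.948 and 1.06. Opa1 itself reached 119.7 ± 6.09 CPM in the WT group and 65.6 ± 4.42 CPM in the Opa1+/- group (SD, n = 4 per group), and the groups did not overlap. Hair cell, spiral ganglion neuron and Schwann cell markers, 8 of 8 in each list, were detected. Skeletal muscle markers, absent from the cochlea proper, summed to between 17.2 and 2215 CPM, and erythroid markers to between 7739 and 25032 CPM.

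The promoters of 3 members with the widest spread between mice and of Jun, one of the steadier members, are shown first. RefSeq sequences of GRCm38.p6 held a promoter for 7 of the 10 members, and 250 bases before the annotated start were read 5′ to 3′ on the strand of the gene. Nr4a1 (chr15:101266596-101266845, plus strand), Fosb (chr7:19310046-19310295, minus strand) and Fos (chr12:85473640-85473889, plus strand) were 3 of the members highest in Het_7, and Jun (chr4:95052223-95052472, minus strand) was highest in WT_8. Capitals mark the CRE half-site TGACG on either strand, which reads as CGTCA on the other, and in Jun the core of a heat shock element.
Nr4a1: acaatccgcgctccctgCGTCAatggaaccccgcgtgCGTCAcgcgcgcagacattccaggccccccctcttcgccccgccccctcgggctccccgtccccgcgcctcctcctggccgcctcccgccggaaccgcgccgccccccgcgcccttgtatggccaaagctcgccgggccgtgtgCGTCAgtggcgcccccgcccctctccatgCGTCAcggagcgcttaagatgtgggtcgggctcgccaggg
Fosb: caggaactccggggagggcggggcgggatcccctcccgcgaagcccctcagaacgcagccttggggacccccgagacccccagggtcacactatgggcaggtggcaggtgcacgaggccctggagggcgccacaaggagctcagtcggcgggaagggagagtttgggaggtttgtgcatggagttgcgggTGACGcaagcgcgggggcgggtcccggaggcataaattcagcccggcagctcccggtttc
Fos: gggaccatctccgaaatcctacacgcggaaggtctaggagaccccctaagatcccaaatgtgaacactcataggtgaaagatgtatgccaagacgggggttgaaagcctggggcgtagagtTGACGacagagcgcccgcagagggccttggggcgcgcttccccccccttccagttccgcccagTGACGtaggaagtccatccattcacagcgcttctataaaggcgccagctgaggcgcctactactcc
Jun: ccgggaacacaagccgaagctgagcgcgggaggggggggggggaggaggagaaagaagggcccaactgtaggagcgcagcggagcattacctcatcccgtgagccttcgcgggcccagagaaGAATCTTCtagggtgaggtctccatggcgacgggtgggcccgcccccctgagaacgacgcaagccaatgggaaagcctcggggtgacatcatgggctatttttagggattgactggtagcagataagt

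The half-site TGACG, a core of the element to which CREB binds, was searched on both strands and was present 4 times before Nr4a1, 2 times before Fos and 1 time each before Fosb and Junb. The Dusp1 window held it 3 times, 2 of them being the overlapping arms of a full TGACGTCA from 143 to 136 bases before the start. The windows of Jun and Zfp36 held none. Of 32851 promoter windows of the same length in the table, 17.8% held the half-site and 1.55% the full element. All 5 members with a half-site were highest in Het_7, and the 2 without it, Jun and Zfp36, were highest in WT_8. That coincidence was noticed after the levels were seen and is a description of 7 windows, and nothing is drawn from it about the factors.

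The CArG box, the site of SRF, was found in the Zfp36 window alone among the 7, from 58 to 49 bases before the start, against 1.47% of all windows. The EGR site GCGNGGGCG stood before Nr4a1, Fosb and Zfp36 (4.70% of all windows), and the AP-1 site TGANTCA before none of the 7 (6.75%). TATAAA was present 33 to 28 bases before Fos (12.4%), and the heat shock element core GAANNTTC 128 to 121 bases before Jun (6.69%). Each motif was searched on both strands, and a site outside the window would not have been seen. Longer GENCODE transcripts of Nr4a1, Dusp1 and Zfp36 start further upstream, and the Zfp36 window lies within the first exon of one of them.

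None of the 10 genes passed the test of a difference between Opa1+/- and WT cochleae. The edgeR quasi-likelihood test with Benjamini-Hochberg adjustment over all genes tested called 0 of 10, where it called 0.0258% of all genes. DESeq2 and limma voom also called 0 of 10, where they called 0.129% and 0.0516% of all genes, and 0 of 10 had an unadjusted p under 0.05 by any of the 3 tools, where edgeR gave 6.72% of all genes. The WT and Opa1+/- ranges overlapped for all 10 genes, and 4.31% of all genes had ranges that did not overlap. The fitted change was above 0 for 8 of 10 members, against 50.1% of all genes, and the median log2 fold change of the members was 0.10 against 3.95e-04 over all genes tested. The median turned to -0.03 without Het_7, and then 5 of 10 members were above 0. Without Het_484 and Het_491 it was 0.21, with Fosb at 0.79 and Nr4a1 at 0.60. Erythroid markers summed to 7739 to 21425 CPM in WT and 15040 to 25032 CPM in Opa1+/- libraries, with a median log2 fold change of 0.57 (7 of 7 above 0). Schwann cell markers (median 0.20) and endothelial markers (median 0.11) were above 0 in 8 of 8 each, and skeletal muscle markers (median -0.77) below 0 in 8 of 8. No marker of these lists was called, and their part in the fitted changes was not tested.

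**Figure D1:**
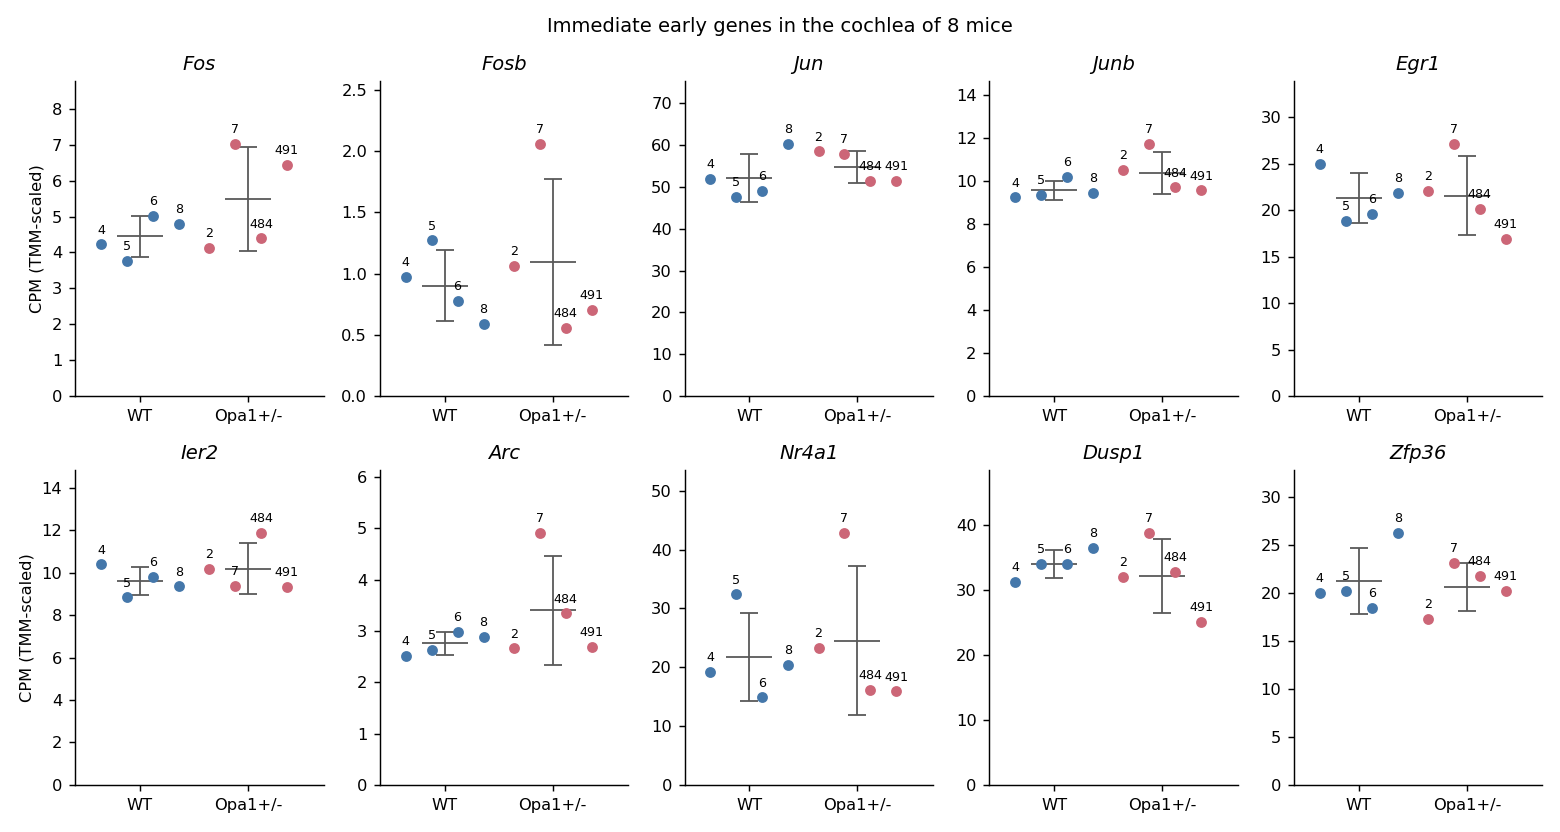
CPM (vertical axis, from 0) of each of the 10 genes in 4 WT (blue) and 4 Opa1+/- (red) mice, with the number of the animal above its point, the mean as a horizontal line and the SD as a bar. The groups overlapped in every panel, and Het_7 was the highest point in 7 of the 10.

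Among the Fos genes, which pair with Jun proteins to form AP-1, Fos (chr12:85473890-85477273, plus strand) was at 4.22, 3.76, 5.02 and 4.80 CPM in WT_4, WT_5, WT_6 and WT_8 and at 4.14, 7.02, 4.39 and 6.45 CPM in Het_2, Het_7, Het_484 and Het_491. Het_7 and Het_491 lay above all WT mice, and Het_2 and Het_484 lay among them. The group means were 4.45 ± 0.569 CPM for WT and 5.50 ± 1.45 CPM for Opa1+/- (SD, n = 4 per group), a log2 fold change of 0.31 (SE 0.199, 95% interval -0.14 to 0.75). The difference did not pass the test, with an edgeR adjusted p of 0.790 and an exact two-sided permutation p of 0.314, where the smallest p that 70 arrangements can give is 0.0286. Without Het_7 the log2 fold change was 0.17. Fos rested on 70 to 140 counts per mouse, and the exact Poisson interval of Het_7 was 5.90 to 8.28 CPM against 5.25 to 7.83 CPM in Het_491. Those intervals cover counting error only.

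Fosb, which is made alongside Fos and has a longer lived splice form, was the lowest member. The gene lies at chr7:19302696-19310051 on the minus strand. It was at 0.970, 1.27, 0.777 and 0.588 CPM in WT_4, WT_5, WT_6 and WT_8 and at 1.06, 2.06, 0.557 and 0.702 CPM in Het_2, Het_7, Het_484 and Het_491. Het_7 stood above the rest, and the other 3 Opa1+/- mice overlapped the WT mice. The log2 fold change was 0.31 (SE 0.421, edgeR adjusted p 0.910) on only 9 to 41 counts per mouse, and it turned to -0.21 without Het_7. Its 95% interval, from 0.641-fold to 2.38-fold, was the widest of the 10 genes.

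The Jun genes, the partners of Fos, were steadier. Jun was at 51.8, 47.5, 49.0 and 60.2 CPM in WT_4, WT_5, WT_6 and WT_8 and at 58.4, 57.8, 51.3 and 51.4 CPM in Het_2, Het_7, Het_484 and Het_491. The highest and the lowest mouse were both WT. With a log2 fold change of 0.07 (SE 0.0853, edgeR adjusted p 0.896), the 95% interval of the genotype difference ran from 0.920-fold to 1.20-fold, the narrowest of the 10. The Jun locus (chr4:95049034-95052222, minus strand) overlaps Junos on the opposite strand, and since the use of strand in counting is not given in the sources used here, reads of that antisense gene cannot be told apart from those of Jun.

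Junb, a Jun protein that can also restrain AP-1 activity (chr8:84974484-84978718, minus strand), was at 9.25, 9.37, 10.2 and 9.45 CPM in WT_4, WT_5, WT_6 and WT_8 and at 10.5, 11.7, 9.72 and 9.57 CPM in Het_2, Het_7, Het_484 and Het_491. All 4 Opa1+/- mice lay above 3 of the WT mice, and WT_6 lay among them. The means of 9.57 ± 0.438 and 10.4 ± 0.989 CPM (SD, n = 4 each) gave a log2 fold change of 0.12 (SE 0.0974, edgeR adjusted p 0.831), which became 0.055 without Het_7. Over 18 alternative settings Junb had the lowest adjusted p of any member, 0.595, by limma voom.

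Egr1, a zinc finger factor that reports ERK signalling in many tissues, was at 24.9, 18.9, 19.6 and 21.8 CPM in WT_4, WT_5, WT_6 and WT_8 and at 22.1, 27.1, 20.1 and 16.9 CPM in Het_2, Het_7, Het_484 and Het_491. The highest and the lowest mouse were both Opa1+/-. The means were 21.3 ± 2.72 and 21.6 ± 4.28 CPM (SD, n = 4 each), with a log2 fold change of 0.02 (SE 0.144, edgeR adjusted p 0.983) that turned to -0.01 when libraries were scaled by total counts alone.

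Nr4a1, an orphan nuclear receptor induced by calcium and cyclic AMP, varied most between mice relative to counting error. It spans chr15:101254269-101274795 on the plus strand. It was at 19.2, 32.4, 14.9 and 20.4 CPM in WT_4, WT_5, WT_6 and WT_8 and at 23.2, 42.9, 16.1 and 15.9 CPM in Het_2, Het_7, Het_484 and Het_491. Het_7 and WT_5 stood above the other 6, so that 1 mouse of each genotype was high. The range within WT was 2.18-fold and within Opa1+/- 2.70-fold, wider than the genotype difference of 1.13-fold (log2 fold change 0.18, SE 0.340, edgeR adjusted p 0.938), which turned to -0.24 on the log2 scale without Het_7. On 249 to 855 counts per mouse, the exact Poisson intervals of Het_7 (40.0 to 45.8 CPM) and WT_5 (30.0 to 34.9 CPM) did not reach that of Het_2, the next highest, which ended at 25.7 CPM.

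Arc, a synaptic protein whose transcript rises with neuronal activity, was at 2.51, 2.64, 2.99 and 2.89 CPM in WT_4, WT_5, WT_6 and WT_8 and at 2.66, 4.91, 3.34 and 2.68 CPM in Het_2, Het_7, Het_484 and Het_491. Het_7 stood apart from the other 7, which lay within 2.51 to 3.34 CPM. The log2 fold change of 0.31 (SE 0.216, edgeR adjusted p 0.799, 42 to 98 counts per mouse) became 0.07 without Het_7. Ier2, a nuclear protein induced by growth factors, was at 10.4, 8.84, 9.80 and 9.35 CPM in WT_4, WT_5, WT_6 and WT_8 and at 10.2, 9.37, 11.9 and 9.32 CPM in Het_2, Het_7, Het_484 and Het_491. Ier2 was the only member for which Het_484 was highest and Het_7 was not above the median of the 8, and its log2 fold change of 0.09 (SE 0.109, edgeR adjusted p 0.901) became 0.0048 without Het_484.

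The remaining pair, Dusp1 and Zfp36, end the response. Dusp1, a phosphatase that inactivates MAP kinases, was at 31.3, 34.1, 34.1 and 36.5 CPM in WT_4, WT_5, WT_6 and WT_8 and at 32.0, 38.8, 32.9 and 25.1 CPM in Het_2, Het_7, Het_484 and Het_491. Opa1+/- mice held both the highest and the lowest value, and the log2 fold change was -0.08 (SE 0.117, edgeR adjusted p 0.918), which turned to 0.021 without Het_491 and was -0.18 without Het_7. Zfp36, which binds AU-rich elements and speeds the decay of transcripts including those of other rapid response genes, was at 20.0, 20.3, 18.5 and 26.3 CPM in WT_4, WT_5, WT_6 and WT_8 and at 17.3, 23.1, 21.8 and 20.2 CPM in Het_2, Het_7, Het_484 and Het_491. WT_8 was highest, and the log2 fold change of -0.05 (SE 0.127, edgeR adjusted p 0.957) turned to 0.07 without it. Zfp36 (chr7:28376784-28380253, minus strand) overlaps Gm44710 on the opposite strand, with the same limit as for Jun.

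**Figure D2:**
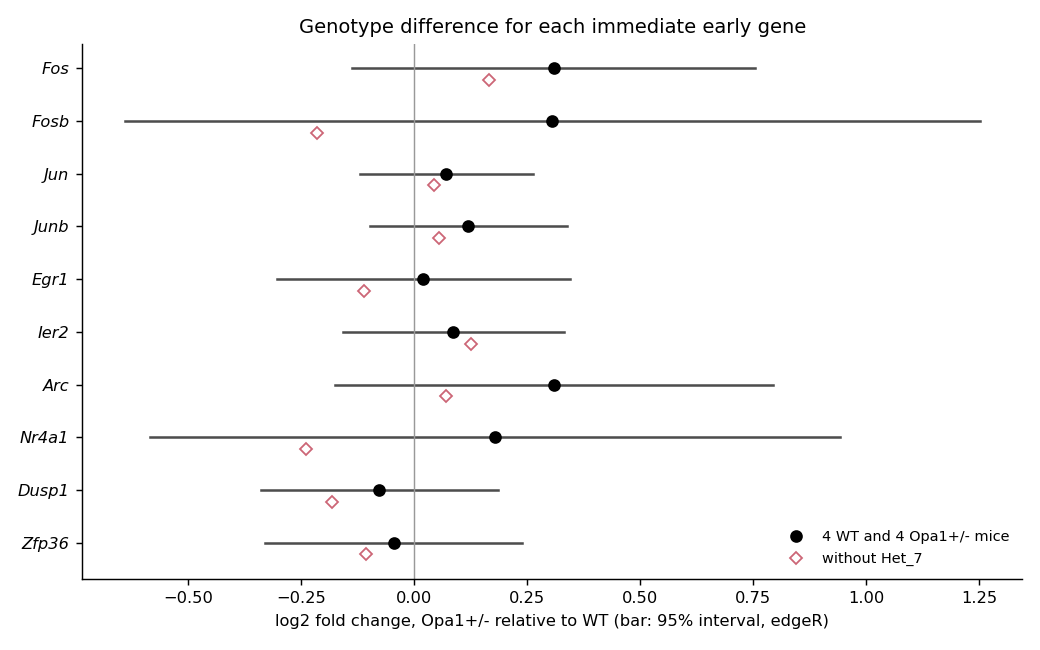
Log2 fold change of each gene in Opa1+/- relative to WT (horizontal axis), with the 95% interval from edgeR as a bar, for all 8 mice (black) and without Het_7 (open red diamonds, no bar). All 10 bars crossed 0, and Fosb, Egr1 and Nr4a1 changed sign without Het_7.

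Compared per length, as CPM per kilobase of the transcript used for each gene, the order over the 8 mice was Jun 16.8 ± 1.48, Dusp1 16.6 ± 2.04, Nr4a1 9.05 ± 3.83, Zfp36 7.50 ± 1.01, Ier2 6.50 ± 0.623, Junb 5.52 ± 0.459, Egr1 4.78 ± 0.741, Fos 2.36 ± 0.551, Arc 1.01 ± 0.257 and Fosb 0.264 ± 0.130 (SD, n = 8). The transcript used for Zfp36, of 2790 bases, begins upstream of the RefSeq start. A shorter transcript would give Zfp36 a higher value, so its place in the order could change. Neighbours from Jun down to Egr1 had overlapping ranges, and Jun was above Dusp1 in 4 of 8 mice, while Dusp1 was above Nr4a1 in 8 of 8. Egr1 above Fos, Fos above Arc and Arc above Fosb held in 8 of 8 mice without overlap.

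Beside the genotype comparison, 1 mouse stood out. Het_7 was the highest of the 8 for 7 of 10 members (Arc, Dusp1, Egr1, Fos, Fosb, Junb and Nr4a1) and above the median for 9, whereas it was the highest for 8.68% of all genes tested. The summed level of the 10 genes was 224.8 CPM in Het_7 and between 158.3 and 192.3 CPM in the other 7. Relative to the median of the other 7 mice, Het_7 was at 2.65-fold for Fosb, 2.23-fold for Nr4a1, 1.83-fold for Arc and 1.60-fold for Fos. It was at 1.35-fold for Egr1, 1.23-fold for Junb, 1.18-fold for Dusp1, 1.14-fold for Zfp36, 1.12-fold for Jun and 0.957-fold for Ier2. Het_7 was singled out after its values were seen, so these figures are a description and were given no test.

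**Figure D3:**
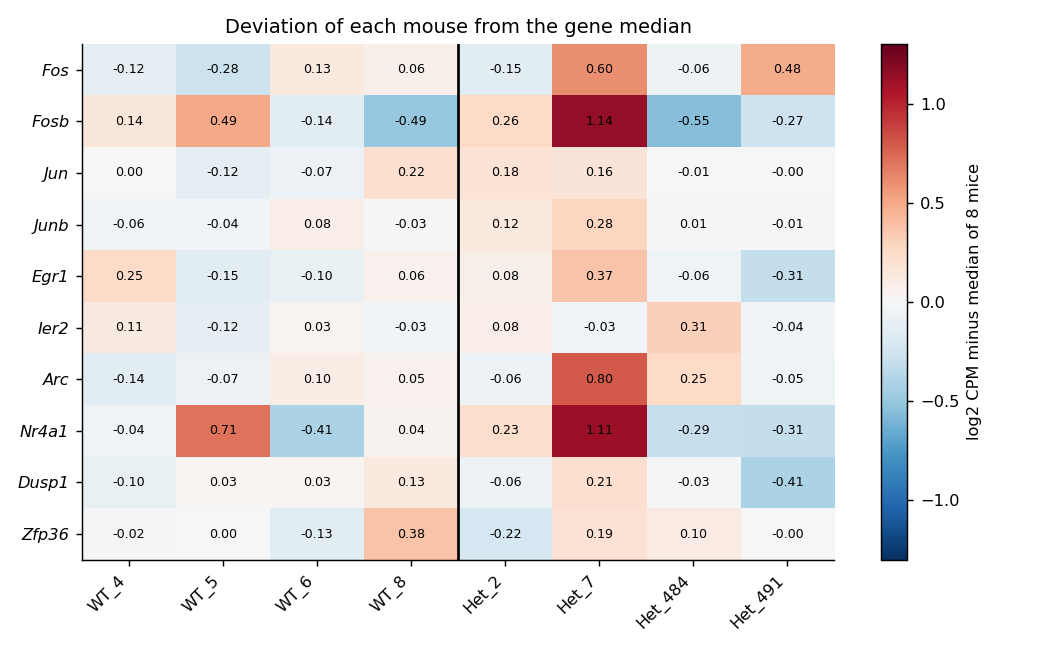
Log2 CPM of each gene (rows) in each mouse (columns, WT left of the line and Opa1+/- right) minus the median of that gene over the 8 mice, in red where higher and blue where lower. The column of Het_7 is above the median for 9 genes and that of Het_491 for 1.

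At the other end, Het_491 was above the median for 1 member, Fos, and lowest for Dusp1 and Egr1, with a summed level of 158.3 CPM, the lowest of the 8. Fos and Egr1 thus stood near opposite ends in the same library, since Het_491 was second highest for Fos (6.45 CPM) and lowest for Egr1 (16.9 CPM). The extremes of the group were therefore both Opa1+/- mice, and the sums of WT mice (164.8 to 192.3 CPM) lay inside the Opa1+/- range. Het_491 also had the highest erythroid marker sum, 25032 CPM, and the lowest skeletal muscle sum, 17.2 CPM. Its TMM factor, 0.948, was the lowest of the 8, and its share of counts on mitochondrial genes, 16.1%, the highest. The part of these in its low values was not tested.

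Across the 8 mice Fos did not track the other 9 members closely. Pearson's r with Fos was highest for Arc, at 0.65 (exact permutation p 0.0731, 0.579 after Benjamini-Hochberg adjustment over 9 relations), with a Spearman's rho of 0.71 (exact permutation p 0.0576, adjusted 0.518). Junb followed with r = 0.57 (exact permutation p 0.129, adjusted 0.579; rho 0.48, exact permutation p 0.243, adjusted 0.882), and 0 of 9 relations passed by either measure. Without Het_7 and Het_491, the 2 farthest from the median of Fos, r fell to 0.52 for Arc and 0.26 for Junb, and it was -0.82 for Nr4a1 and -0.74 for Fosb, which with all 8 mice had been 0.15 and 0.25. Without those mice r was 0.26 for Jun, 0.27 for Zfp36, 0.44 for Dusp1, 0.15 for Ier2 and 0.02 for Egr1, so that Fosb and Nr4a1 turned from positive to negative and Dusp1 and Ier2 from negative to positive. Within WT, r with Arc was 0.81 over 4 mice and within Opa1+/- it was 0.53, and with Nr4a1 it was -0.88 and 0.45.

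Nr4a1 and Fosb, in contrast, had the same 3 mice at the top in the same order, Het_7, WT_5 and Het_2. Nr4a2, a second orphan receptor of the family and not a member, also had those 3 on top in that order. It was at 11.4, 12.9, 10.8 and 9.30 CPM in WT_4, WT_5, WT_6 and WT_8 and at 12.1, 22.1, 7.86 and 8.42 CPM in Het_2, Het_7, Het_484 and Het_491. Nr4a3, the remaining receptor, was at 3.42, 3.56, 3.94 and 4.85 CPM in WT_4, WT_5, WT_6 and WT_8 and at 6.50, 13.8, 2.29 and 2.81 CPM in Het_2, Het_7, Het_484 and Het_491. Het_7 was thus at 3.87-fold the median of the others for Nr4a3 and 2.04-fold for Nr4a2, and Het_484 and Het_491 were the lowest pair for both. Het_484 and Het_491 are the only mice with 3-digit numbers, and what the numbers stand for beyond the animal is not given. No WT mouse has such a number, so its part in the genotype comparison cannot be told apart. The pair of Nr4a1 and Fosb, and Nr4a2 and Nr4a3 beside it, were picked out after their values were seen.

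WT_8 stood out for other genes. It was highest for Jun (60.2 CPM) and Zfp36 (26.3 CPM), but low for Fosb (0.588 CPM). Atf3, a stress-induced bZIP partner of Jun, was at 12.2 CPM in this mouse and at 5.08 to 5.74 CPM in the other WT mice, 2.29-fold the median of the other 7. Het_7 was second highest for Atf3, at 9.02 CPM, and for Zfp36, at 23.1 CPM. Hspa1a, an inducible HSP70 gene, was at 76.1 CPM in WT_8 and at 18.3 to 33.4 CPM in the other 7, and 8 of 15 heat shock genes were highest in this mouse, which was highest for 9.66% of all genes tested. In Het_7 by comparison Hspa1a was at 22.2 CPM, and 0 of 15 heat shock genes were highest while 7 of 15 were lowest, where Het_7 was lowest for 9.74% of all genes tested. Hspa1a shares most of its sequence with Hspa1b, and how the authors' counting split reads between them is unknown. Cyr61, a matricellular rapid response gene driven by SRF and YAP, was high in both mice, at 75.4 CPM in Het_7 and 67.8 CPM in WT_8 against 35.0 to 44.2 CPM in the other 6. Ctgf, of the same list, set WT_8 apart alone, at 264 CPM, with Het_7 at 184 CPM close to Het_2 at 176 CPM. Atf3, Hspa1a, Cyr61 and Ctgf were likewise chosen after their values were seen.

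**Figure D4:**
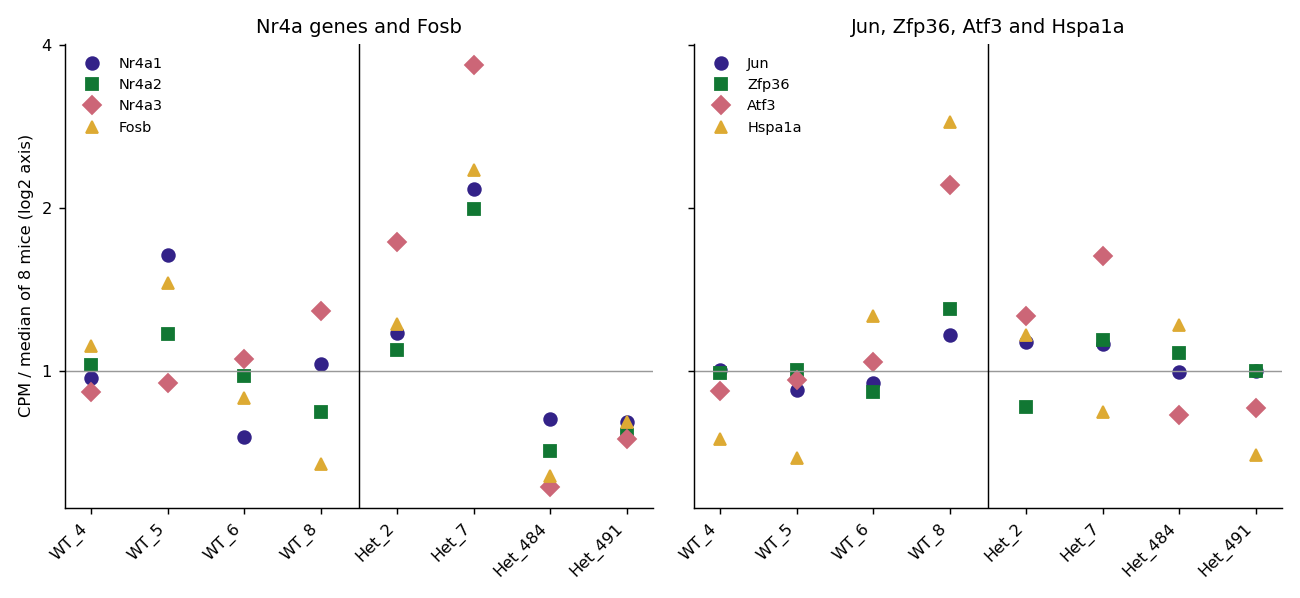
CPM divided by the median of the 8 mice (log2 axis) for the Nr4a genes and Fosb (left) and for Jun, Zfp36, Atf3 and Hspa1a (right), by mouse, with WT left of each line. Het_7 is the highest point for all 4 genes on the left and WT_8 for all 4 on the right.

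Values of other cell types beside these mice were as follows. Skeletal muscle markers summed to 1091 CPM in Het_7, between 17.2 CPM in Het_491 and 2215 CPM in WT_6, and their part in the members' levels was not tested. The neuron, hair cell, Schwann cell, endothelial, erythroid, marrow, macrophage and muscle sums of Het_7 lay inside the range of the other 7 mice, and its bone marker sum of 1392 CPM lay between 1286 and 1907 CPM in the rest. Single markers were less even. Het_7 was the lowest mouse for S100a8, S100a9, Ngp and Camp (marrow), Bglap, Bglap2 and Ibsp (bone) and Myo7a (hair cell). It was the highest for Cdh5 and Kdr (endothelium), and at neither end for the other markers. In WT_8 the Schwann cell sum (3234 CPM) and the erythroid sum (7739 CPM) were the lowest of the 8. Its share of counts on mitochondrial genes, 11.7%, was also the lowest, and its TMM factor, 1.06, the highest. Counts on named genes were 20204154 in Het_7 and 19226879 in WT_8, below WT_5 with 20828030 and above the other 5. The time from death to freezing is not given in the sources used here. The labels name TRI Reagent or an RNeasy kit for RNA extraction and the study's methods TRI Reagent with NucleoSpin columns, without the kit of each mouse, and their part in the differences between mice was not tested.

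**Figure D5:**
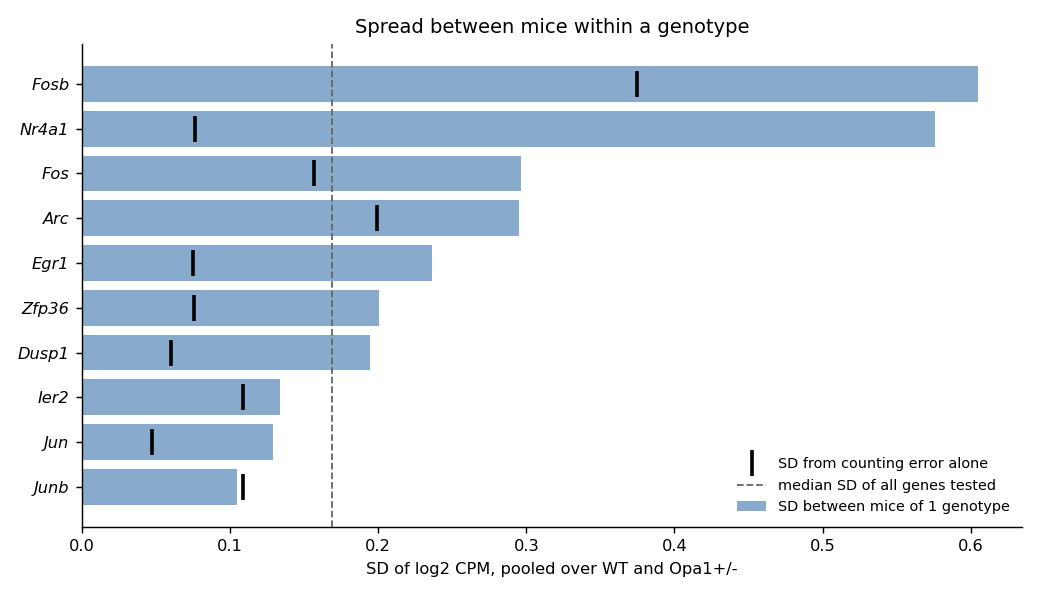
SD of log2 CPM between mice of 1 genotype, pooled over WT and Opa1+/- (bars), the SD that counting error alone would give (black ticks) and the median SD of all genes tested (dashed line, 0.169). Fosb and Nr4a1 have the longest bars, and the tick lies beyond the bar for Junb alone.

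The spread between mice of 1 genotype differed widely between members. The SD of log2 CPM, pooled over both genotypes, was 0.605 for Fosb and 0.576 for Nr4a1, at percentiles 94.4 and 93.8 of all genes tested, and 0.104 for Junb, at percentile 23.5. Set against the SD expected from counting alone, Nr4a1 varied 7.53 times as much, Dusp1 3.23 times, Egr1 3.16 times and Jun 2.75 times, while Fosb at its low counts varied 1.61 times, Ier2 1.23 times and Junb 0.961 times. The median SD of the 10 members was 0.219 against 0.169 over all genes tested, with median counting SDs of 0.0925 and 0.0887, and without Het_7 the medians were 0.169 for the members and 0.170 over all genes. Without Het_7 the SD of Arc dropped from 0.295 to 0.143 and that of Nr4a1 from 0.576 to 0.410.

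A search over the 13928 other tested genes at a mean of 5 CPM or more gave those whose log2 CPM followed the mean standardized level of the members most closely over the 8 mice. Of the 8 closest, Rgs12 (r = 0.946), a regulator of G protein signalling, Ncam1 (r = 0.945), a neural cell adhesion molecule, and Wdr59 (r = 0.897), a subunit of the GATOR2 complex, encode proteins. The other 5, Gm10284 (r = 0.957), Gm8565 (r = 0.918), Gm2445 (r = 0.911), Gm10566 (r = 0.908) and Gm2451 (r = 0.895), are annotated as processed pseudogenes, whose reads can be shared with the parent gene or with each other. All 8 were highest in Het_7, Ncam1 at 117.6 CPM against 101.9 to 108.7 CPM in the others and Gm10284 at 150.3 CPM against 118.4 to 126.0 CPM. Picking the closest of 13928 genes gives high values on 8 points, and they are listed as a description. The median r with the members' mean was 0.377 for the AP-1 and bZIP partners, 0.228 for the other rapid response genes, 0.206 for the upstream kinases and factors, 0.038 for the feedback genes, -0.075 for the glucocorticoid and metallothionein genes, -0.322 for the heat shock genes and -0.01 over all candidates.

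Of the wider pathway, 0 genes were called by edgeR in any of 6 lists, where it called 0.0258% of all genes. Among other AP-1 and bZIP partners, 9 of 10 were tested and 0 had an unadjusted p under 0.05 (6.72% of all genes), with a median log2 fold change of 0.09. Batf, a bZIP factor of immune cells, was at 0.940 ± 0.0982 CPM for WT and 1.26 ± 0.177 CPM for Opa1+/- (log2 fold change 0.42, SE 0.197, edgeR adjusted p 0.758), and Jund, the constitutive Jun gene, at 77.0 ± 11.6 and 82.5 ± 4.86 CPM (0.10, SE 0.102, edgeR adjusted p 0.867). Cebpb had a log2 fold change of 0.18 and Fosl2 of -0.13.

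Among the other rapid response genes, 34 of 35 were tested, 2 had an unadjusted p under 0.05 upward and 1 downward (3.51% and 3.22% of all genes), and the median log2 fold change was 0.07. Egr2, an EGR factor that also drives myelination in Schwann cells, was at 21.4, 21.3, 20.1 and 23.0 CPM in WT_4, WT_5, WT_6 and WT_8 and at 23.5, 27.6, 30.6 and 27.2 CPM in Het_2, Het_7, Het_484 and Het_491. The groups did not overlap, yet the log2 fold change of 0.34 (SE 0.0859) had an edgeR adjusted p of 0.722 and was not called by DESeq2 (adjusted p 0.359) or limma voom (adjusted p 0.423). The Schwann cell marker sum, which includes Egr2, was 3234 to 4423 CPM for WT and 3887 to 5268 CPM for Opa1+/-, and its part in the Egr2 values was not tested. Irf1, an interferon response factor, had a log2 fold change of 0.21 and Mcl1, a survival protein, of -0.18 (edgeR adjusted p 0.728 and 0.722), and Tiparp one of -0.15. The Mcl1 groups did not overlap either, at 76.9 to 89.9 CPM for WT and 68.6 to 75.8 CPM for Opa1+/-. Groups did not overlap for 4.31% of all genes tested. Egr4 and Npas4 are named outside the rule, after their values were seen. Egr4 did not pass the filter, with 1 to 4 counts per mouse. Npas4, which is restricted to active neurons, rested on 7 to 23 counts per mouse and lay between 0.418 and 1.15 CPM, with Het_7 highest.

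Of the 22 upstream kinases and factors tested, 1 had an unadjusted p under 0.05 upward and 3 downward, against the same 3.51% and 3.22% of all genes. Rps6ka3, the kinase RSK2 that acts on CREB and SRF, was at 109, 119, 110 and 115 CPM in WT_4, WT_5, WT_6 and WT_8 and at 97.4, 97.3, 94.7 and 99.9 CPM in Het_2, Het_7, Het_484 and Het_491. The groups did not overlap, and the log2 fold change of -0.22 (SE 0.0539) had an edgeR adjusted p of 0.722 but a DESeq2 adjusted p of 0.0431, the 1 gene of these lists that any of the 3 tools called, where DESeq2 called 25 of all genes (0.129%) and edgeR 5 (0.0258%). Of the ternary complex factors, Elk3 had a log2 fold change of 0.23 (SE 0.0701), Elk4 of -0.18 (SE 0.0717) and Elk1, named outside the rule after its values were seen, of 0.04 (SE 0.102, edgeR adjusted p 0.949). The JNK gene Mapk9 had one of -0.15 (edgeR adjusted p 0.722 for Elk3, Elk4 and Mapk9), and none of these 4 passed the test.

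Of the phosphatase and mRNA decay feedback genes, 18 of 19 were tested, 1 had an unadjusted p under 0.05, near the 6.72% of all genes, and the median was 0.02. That gene was Spred1, an inhibitor of Ras signalling (log2 fold change -0.17, edgeR adjusted p 0.728). Dusp8, Dusp16 and Nab1 had log2 fold changes of 0.13, -0.11 and -0.08. Heat shock genes had 0 of 15 with an unadjusted p under 0.05 (6.72% of all genes) and a median of -0.02, and Hspa1a and Hspa1b, at -0.52 (SE 0.426) and -0.59 (SE 0.416), had their highest level in WT_8. Chordc1 and Hspe1 had log2 fold changes of -0.14 and 0.14. Glucocorticoid and metallothionein genes, which respond to systemic stress over hours, had 1 of 12 with an unadjusted p under 0.05, again near the 6.72% of all genes, and a median of -0.08. That gene was Angptl4, an inhibitor of lipoprotein lipase, at 14.1 ± 6.22 CPM for WT and 22.6 ± 5.14 CPM for Opa1+/- (log2 fold change 0.67, SE 0.287, edgeR adjusted p 0.732). Cdkn1a, Mt1 and Tsc22d3 had log2 fold changes of 0.18, 0.32 and -0.19.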

How the data were processed

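RNA was extracted from isolated cochleae with TRI Reagent and NucleoSpin columns per the methods, or with TRI Reagent or an RNeasy microkit per the labels, libraries were made with the CORALL kit, which carries unique molecular identifiers, and paired reads of 80 nucleotides were trimmed, checked with FastQC and mapped to GRCm38 with STAR by the authors. The authors deposited 1 table of raw counts per mouse, whole numbers per gene symbol and not normalized. The methods name the CORALL Data Analysis Pipeline and use of the identifiers against amplification bias. The annotation, strand setting and counting step within that pipeline are not given in the sources used here. The study's methods give the age as p21 and its discussion as 1 month. Entries without a symbol, 15 per mouse and 0.112% to 0.124% of counts, were left out.

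Groups were taken from the sample labels. Genes with a mean count over 10 after DESeq2 size factors were tested with edgeR 4.0.16 (TMM scaling, quasi-likelihood, not robust), with Benjamini-Hochberg adjustment over all of them and an adjusted p under 0.05. Levels are CPM with the SD over mice, and log2 CPM used a prior count of 2. DESeq2 1.42.0 and limma 3.58.1 were alternatives. Counts of 1 library have exact Poisson intervals at 95%, and the counts of the lowest member, 9 to 41, limit its precision most. Positions and transcript lengths came from GENCODE vM21 and promoters from RefSeq, both of GRCm38. Named were all members, up to 4 genes of each pathway list by lowest p, the 8 closest in pattern, and others said to be chosen after their values were seen. The members, lists and tests were chosen with earlier results of these data known.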

Additional observations from a re-analysis of the deposited data

Results flagged for a closer look

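In 98 groups of 4 mice the highest or lowest mouse was compared with the rest by Dixon's ratio against its 95% critical value, which chance passes in about 1 in 20 groups, and 4 passed. Atf3 in WT was set apart by WT_8, at 12.2 CPM against 5.08 to 5.74 CPM in the other 3. Cyr61 in Opa1+/- was set apart by Het_7, at 75.4 CPM against 35.0 to 40.8 CPM in the other 3. The summed level of spiral ganglion neuron markers in WT was lowest in WT_5, at 5255 CPM against 6133 to 6243 CPM. The summed level of neutrophil and marrow markers in WT was highest in WT_4, at 1375 CPM against 422 to 514 CPM. None of the 10 immediate early genes passed this criterion in either genotype.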

How the results depend on the processing

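No paired analysis was made, because the sample labels do not give the litter of each mouse. The 10 immediate early genes stayed uncalled, with 0 at an unadjusted p under 0.05, in every alternative run, and their adjusted p did not go below 0.595. Fosb did not pass the filter when the mean count had to be over 50, so it has no value there. Over all genes tested, 5 were called, against 25 by the DESeq2 Wald test, 10 with robust estimation, 10 by limma voom, 12 without a filter, 11 at an adjusted p under 0.1, 0 to 9 when 1 mouse was left out (0 without Het_2, 9 without WT_4), 0 without both mice with 3-digit numbers and 0 without WT_8 and Het_7, a pair chosen after the data were seen. DESeq2 called 1 upstream gene, Rps6ka3.

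Leaving out 1 mouse moved the members' median log2 fold change between -0.031 (without Het_7) and 0.14, Fosb between -0.21 and 0.53, Egr1 between -0.11 and 0.12, Nr4a1 between -0.24 and 0.44, Dusp1 between -0.18 and 0.021 (without Het_491) and Zfp36 between -0.11 and 0.071 (without WT_8). Without Het_2, Zfp36 was at 0.032, and without WT_5 or WT_6, Egr1 was at -0.035 or -0.017. Without WT_8 and Het_7 together, Fosb was at -0.38, Egr1 at -0.11, Nr4a1 at -0.28 and Zfp36 at 0.0082. Without both 3-digit mice Dusp1 was at 0.055, the members' median at 0.21, Fosb at 0.79, Nr4a1 at 0.60 and Egr1 at 0.20, and with total counts alone Egr1 was at -0.0080. Arc, Fos, Ier2, Jun and Junb stayed above 0 in all 18 alternatives, with 1 mouse left out between 0.071 and 0.41 for Arc, 0.17 and 0.43 for Fos, 0.0048 and 0.13 for Ier2, 0.029 (without WT_5) and 0.14 (without WT_8) for Jun, and 0.055 and 0.15 for Junb. Counts per mouse were lowest for Fosb, 9 to 41, whose interval was the widest.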
